A study of Mus musculus with 4 samples.

Results

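Nonmuscle myosin II and the actin cytoskeleton were examined here as a group of 40 genes, chosen by name, out of the 55353 gene symbols in the deposited count table; all 40 have a row in it. The genes were listed with the contrast described below already known, so their differences between the groups are given as a description, without p-values, and support nothing beyond themselves. The group covers the myosin heavy and light chains, the GTPases and kinases that act on them, the nonmuscle actins, actin assembly factors, tropomyosins, calponins and transgelins, crosslinkers, adhesion and membrane linker genes, and the transcription factor gene Srf.

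The cells were E14, a line of mouse embryonic stem cells that needs no feeder layer, with the strain label 12910la, grown on gelatin in serum with LIF. There were 2 libraries of cells with the genotype label Ssrp1 KO, made with Cas9 and a guide RNA, and 2 libraries of wild-type cells, called controls here. Ssrp1 encodes a subunit of the histone chaperone FACT. The treatment text also describes an empty pSuper puro vector transfected into wild-type cells and selected with puromycin, as the counterpart of a Usp7 shRNA, and leaves unstated whether the controls here were given it. The labels do not say whether the lines are clones or whether the 2 libraries of a group are separate cultures, so the spread within a group may be technical.

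Ribosomal-RNA-depleted total RNA was sequenced to between 22611434 and 25344190 gene counts per library. The targeted gene was not lower: Ssrp1 was at 305.5 and 327.3 normalised CPM (counts set against the scaled library total) in the libraries labelled knockout, against 282.2 and 305.7 in the controls. Its groups overlapped. The genotype label thus has no check from this RNA, and the treated samples are called the libraries labelled knockout throughout. Gm26917 and Gm42418, which resemble ribosomal RNA, took 6.30% and 4.64% of counts in the libraries labelled knockout and 9.72% and 10.3% in the controls. The 8 pluripotency markers summed to 3108 and 3057 CPM in the libraries labelled knockout and 3816 and 3901 CPM in the controls. Of the 8, 2 were higher, Nanog and Utf1, and 5 lower, against 16.5% and 17.2% of all genes tested. The 7 primitive endoderm markers summed to 31.0 and 35.5 CPM against 11.7 and 9.31 CPM in the controls. Of the 6 tested, 5 were higher and 0 lower, against the same shares of all genes. Sox17, the tested marker not past the threshold, passed the count filter through the libraries labelled knockout alone. Of 9 fibroblast markers, Dcn, Lum and Postn had 0 counts in all 4 libraries, and the list summed to 32.0 and 34.9 CPM in the libraries labelled knockout and 38.5 and 40.1 CPM in the controls. Of the 4 fibroblast markers tested, 0 were higher and 1 lower, Pdgfrb, against the same shares of all genes. Of 7 smooth muscle markers, Actg2 was at 0 in all 4 libraries, and the list summed to 52.0 and 51.1 CPM against 49.4 and 52.7 CPM in the controls. Most of this sum came from Des and Smtn. Of the 5 tested, 1 was higher and 0 lower, against 16.5% and 17.2% of all genes tested. The higher one was Synpo2, at 1.80 and 2.06 CPM against 0.68 and 0.65 CPM in the controls. Myh11, also among the 5 tested, passed the count filter through the libraries labelled knockout alone, so it could not have been called lower. These are bulk libraries, in which fewer cells of a type and less RNA per cell cannot be told apart, and the part of these shares and marker sums in the results was not tested.

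Nonmuscle myosin II is the motor that pulls actin filaments past each other in cells outside muscle. Each motor holds a pair of heavy chains, encoded by Myh9, Myh10 or Myh14, with an essential and a regulatory light chain on each, and phosphorylation of the regulatory chain by kinases such as ROCK1 or myosin light chain kinase switches it on. Actin monomers feed this network and also hold back the MRTF cofactors of SRF, a transcription factor that binds CArG boxes near many cytoskeletal genes. In embryonic stem cells this cortex sets cell shape, colony compaction and cytokinesis.

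Within this group the libraries labelled knockout had much less Myh9 RNA, with Myh10 and Myh14 near the control level, and less Vasp RNA. They had more RNA of Pfn1, Srf, Myl12a, Tpm1, Actg1, Rock1, Cfl1 and Tpm3. Of the 40 genes, 39 had enough counts to be tested in the fit across all genes, and 20 of these were past the threshold (adjusted p under 0.05, edgeR), 15 higher and 5 lower. Over all 17482 genes tested the share past the threshold was 33.6%, with 16.5% higher and 17.2% lower. Since the genes were chosen with this contrast known, nothing is read from their share of 51.3%. The median log2 fold change was 0.14 over the 39 genes and 0.0035 over all genes tested, and the median size of change was 0.24 against 0.28 over all genes tested. Only Myh9, Myl9 and Tagln were past the threshold with a change of at least 1 log2 unit, a size reached by 8.08% of all genes tested. Groups were fully apart for 31 of the 39 genes, or 79.5%, and for 66.6% of all genes tested. Myl9 passed the count filter through the libraries labelled knockout alone, so it could not have been called lower. Without control 1 the calls were 10 higher and 2 lower, without control 2 they were 11 and 2, and with scaling by library size alone 19 and 2. The 12 genes past the threshold in the same direction under every alternative that tested them were Myh9 and Vasp (lower) and Myl9, Myl12a, Actg1, Tagln, Tpm1, Tpm3, Cfl1, Pfn1, Rock1 and Srf (higher).

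**Figure D1:**
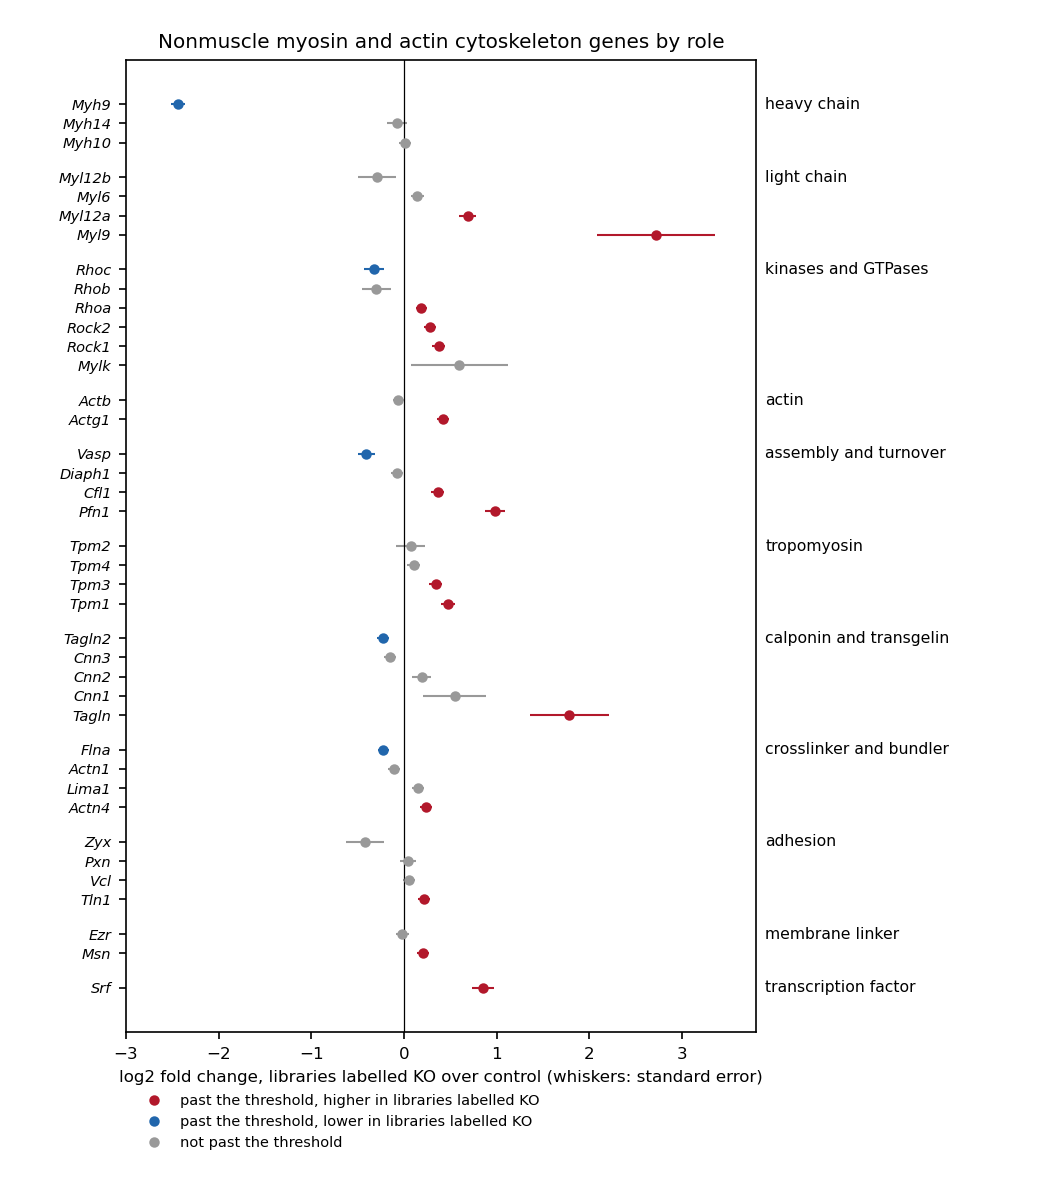
Log2 fold change of the 39 tested genes, libraries labelled knockout over controls (x axis), grouped by role; whiskers are the standard error from the fit over 2 libraries per group and colours show the side of the threshold. Myh9 lies alone at -2.43, most other genes lie within 0.5 of 0, and the wide whiskers belong to the low-count genes Myl9, Tagln, Mylk and Cnn1.

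Myh9, which encodes the heavy chain of nonmuscle myosin IIA, had 53.4 and 62.6 CPM in the libraries labelled knockout and at 309 and 318 CPM in the controls. These levels rest on 1249 and 1489 counts against 6819 and 7785 counts in the controls. Both libraries labelled knockout were far below both controls. On the log2 scale the change was -2.43 ± 0.08 (standard error, 2 libraries per group), a level 5.40-fold lower, and it ranged from -2.56 to -2.32 over all alternatives. Among the 476 tested genes with a control level at least that of Myh9, none other had as low a log2 fold change; over all levels, 61 of the 17482 genes, Myh9 included, were at or below it. The gene lies on chromosome 15 at 77760587 to 77842175 on the minus strand (mm10, GENCODE M21), with 12928 bases of merged exons. Other genes' transcripts hold 0.68% of its 50-base words, so few of its reads could be shared with another gene. Its tested neighbours within 200000 bases on either side were looked at after the value of Myh9 was seen. Txn2, for mitochondrial thioredoxin, had a log2 fold change of -0.08 ± 0.07 (edgeR adjusted p 0.456), Foxred2 -0.05 ± 0.12 (0.765) and Eif3d, a translation initiation factor gene, 0.14 ± 0.07 (0.121). The small predicted gene Gm22107, inside the span of Myh9, was at 1.99 ± 0.09 CPM in the libraries labelled knockout and 1.02 ± 0.35 CPM in the controls (SD, n = 2; adjusted p 0.059).

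Myh10, for the heavy chain of nonmuscle myosin IIB, had 186 and 192 CPM in the libraries labelled knockout, against 183 and 192 CPM in the controls. The groups overlapped, and the log2 fold change was 0.01 ± 0.06. Myh14, for that of nonmuscle myosin IIC, had 26.0 and 27.4 CPM in the libraries labelled knockout and 25.3 and 30.9 CPM in the controls, again with overlap (-0.08 ± 0.11). Per kilobase of merged exons, the 3 heavy chain genes summed to 25.4 and 26.9 CPM per kb in the libraries labelled knockout and 44.9 and 47.2 in the controls, 1.76-fold lower. Myh9 made up 17.1 ± 1.2% of this sum in the libraries labelled knockout and 52.7 ± 0.9% in the controls (SD, n = 2). Myh10 made up 68.9 ± 1.2% and 38.9 ± 0.02%, and Myh14 14.01 ± 0.04% and 8.39 ± 0.88%, in the same order. In the controls Myh9 was thus the most abundant heavy chain RNA per length, and in the libraries labelled knockout Myh10 was. The share is taken within a library and does not depend on scaling between libraries; without division by length the Myh9 share was 21.2% against 59.3% in the controls.

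**Figure D2:**
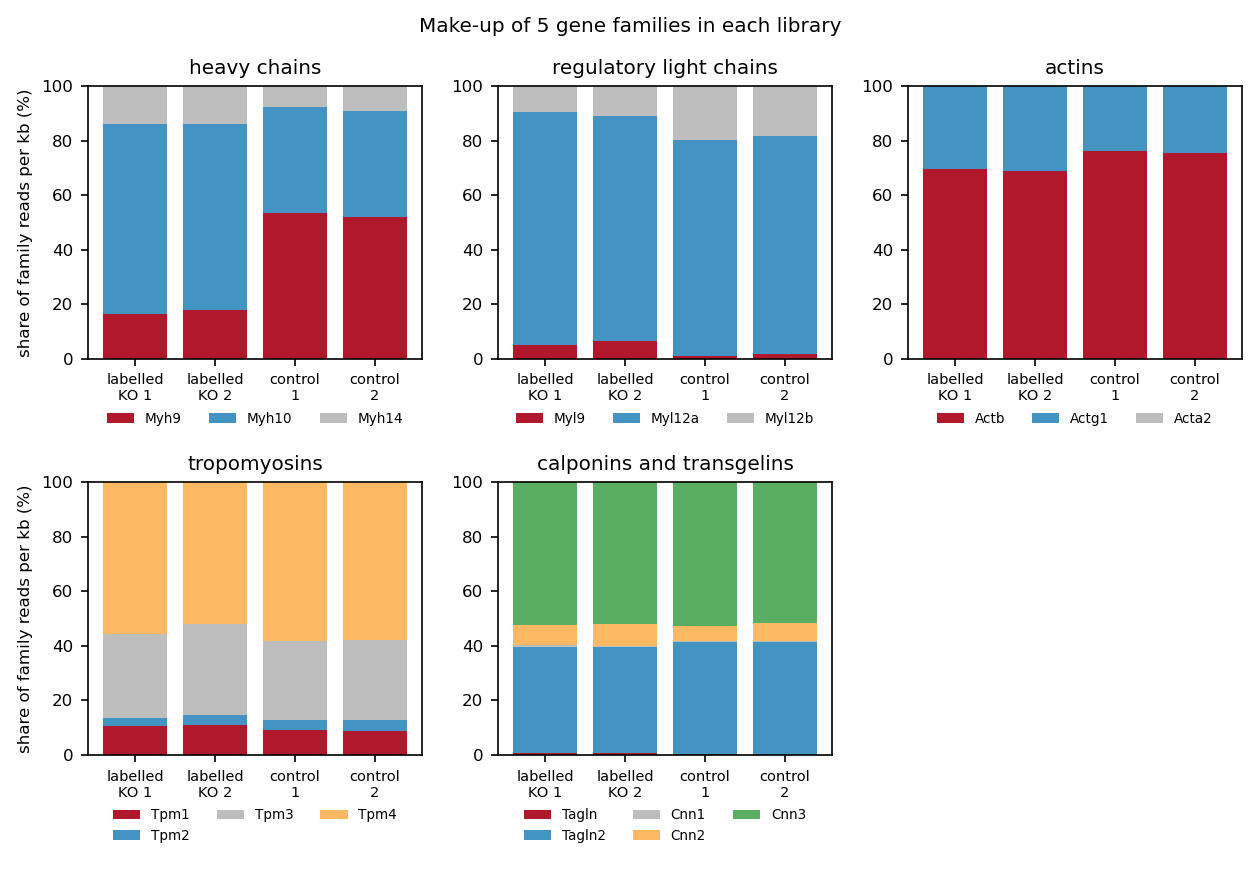
Share of each gene in its family's reads per kilobase of exon (y axis, percent) in each of the 4 libraries (x axis), for 5 families; each bar is 1 library. The heavy chain panel shows the change of leading gene, with Myh9 at 16.2% and 17.96% in the libraries labelled knockout and 53.3% and 52.1% in the controls, whereas calponins and transgelins keep nearly the same make-up.

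Of the 4 light chain genes, Myl12a and Myl9 were past the threshold as higher, and Myl6 and Myl12b were not past it. Myl12a, a regulatory light chain gene, had 43.6 and 42.0 CPM in the libraries labelled knockout and 26.4 and 26.6 CPM in the controls, without overlap, and its log2 fold change was 0.69 ± 0.09. Its neighbour and near-copy Myl12b was at 3.94 and 4.67 CPM against 5.44 and 5.06 CPM in the controls (-0.29 ± 0.20, not past the threshold). Myl9, the regulatory chain gene best known from smooth muscle, had 21 and 27 counts in the libraries labelled knockout and 2 and 5 counts in the controls. It passed the count filter through the libraries labelled knockout alone, so it could not have been called lower. The ratio of its scaled counts was 6.77, with an exact 95% interval of 3.04 to 17.7 for counting error alone, and its log2 fold change lay between 2.28 without control 1 and 3.41 without control 2. The essential light chain gene Myl6 had 71.96 and 71.6 CPM in the libraries labelled knockout and 63.9 and 65.9 CPM in the controls, a log2 fold change of 0.14 ± 0.07 that was not past the threshold. The 3 regulatory chain genes summed to 15.2 ± 0.02 CPM per kb in the libraries labelled knockout and 9.92 ± 0.01 in the controls (SD, n = 2), 1.53-fold higher, and Myl12a made up 84.0 ± 2.2% and 79.6 ± 0.3% of the sum. Values of single members of this pair are uncertain. GENCODE M21 holds a second gene model named Myl12b that runs across both genes and covers 462 exon bases of Myl12a and 739 of Myl12b, and other genes' transcripts hold 16.4% and 19.1% of their 50-base words.

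Of the GTPase and kinase genes, which act upstream of the motor, Rock1, Rock2 and Rhoa were higher and Rhoc was lower in the libraries labelled knockout. Rock1, for a kinase that phosphorylates the regulatory light chain, was at 109.7 and 103 CPM against 82.3 and 82.1 CPM in the controls (0.37 ± 0.07), and Rock2 at 169 and 177 against 142 and 143 CPM (0.28 ± 0.06). The Rock2 call was lost without control 1 (0.27). Rhoa, the GTPase that activates both kinases, had 341 and 349.7 CPM in the libraries labelled knockout and 301 and 306 CPM in the controls (0.19 ± 0.06). Rhoc, a close relative, was at 20.02 and 19.3 against 24.6 and 24.6 CPM (-0.32 ± 0.11). Rhob, a relative with a short-lived transcript, was at 7.79 and 8.57 against 10.9 and 9.27 CPM (-0.30 ± 0.16, not past the threshold). The calls of Rhoa and Rhoc were lost without control 1 and without control 2, and that of Rhoc also without knockout replicate 2, with DESeq2 and with scaling by library size alone. Mylk, for myosin light chain kinase, was near the limit of detection, with 15 and 30 counts against 18 and 11 in the controls, and its groups overlapped.

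The actin genes differed between each other. Actb, for cytoplasmic beta actin, was the most abundant of the 40 genes, with 1914 and 2049 CPM in the libraries labelled knockout and 2082 and 2047 CPM in the controls, with overlap and a log2 fold change of -0.06 ± 0.06. Its sign turned with scaling by library size alone (0.02), and without knockout replicate 2 it was called lower at -0.11. Actg1, for cytoplasmic gamma actin, had 832 and 924 CPM in the libraries labelled knockout and 652 and 662 CPM in the controls, all above all, with a log2 fold change of 0.42 ± 0.06. Per length Actg1 took 30.9 ± 0.6% of actin reads in the libraries labelled knockout and 24.3 ± 0.4% in the controls (SD, n = 2). Other genes' transcripts hold 37.4% of the 50-base words of Actg1 and 9.12% of those of Actb, so both values depend on how reads with several places were counted, which is not given. Acta2, for smooth muscle actin, had 0 and 4 counts in the libraries labelled knockout and 4 and 14 in the controls, too few to be tested. Its ratio was 0.22, with a counting interval of 0.05 to 0.67.

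**Figure D3:**
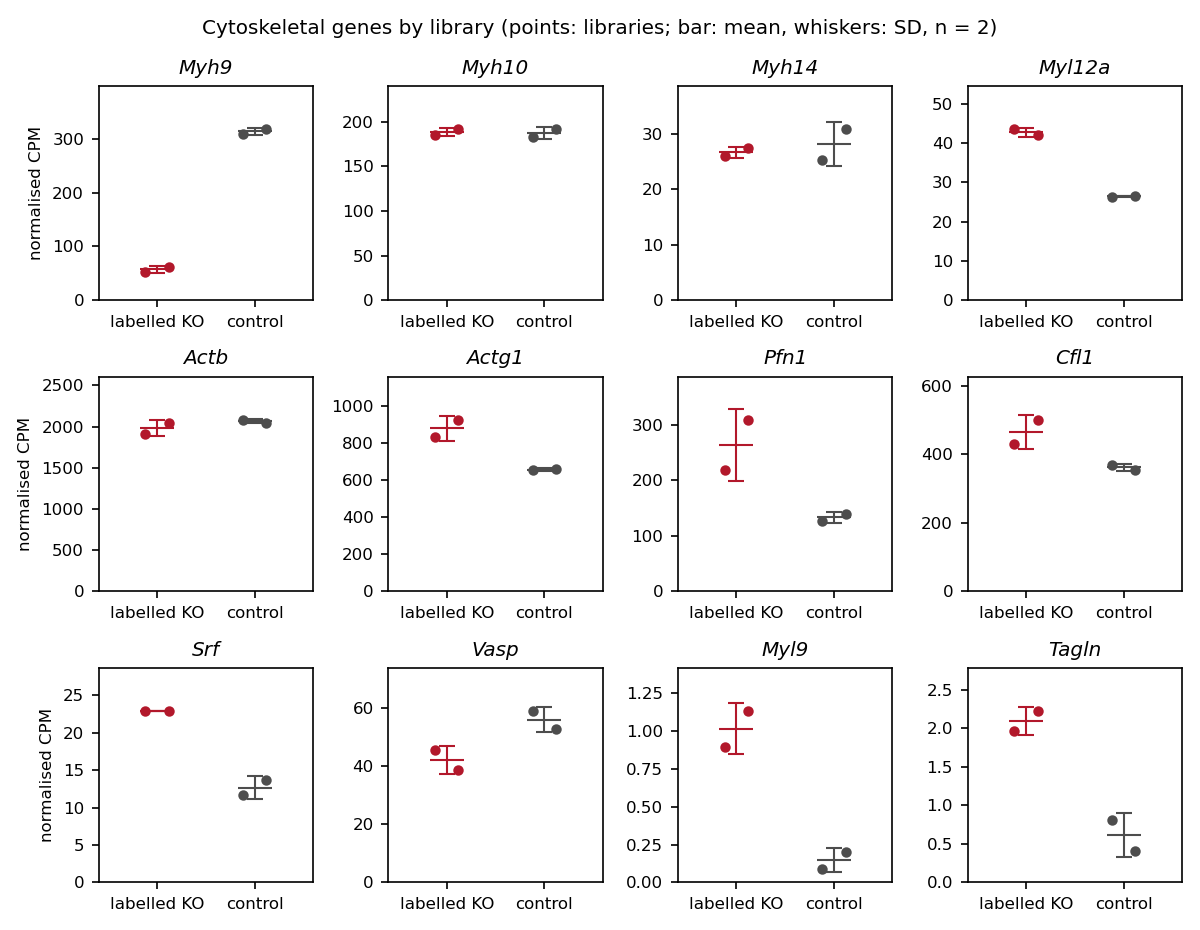
Normalised CPM (y axis, from 0, own scale per panel) of 12 genes in the 2 libraries labelled knockout (red) and the 2 controls (grey); points are libraries, bars the mean and whiskers the SD. Myh9 is at 53.4 and 62.6 against 309 and 318 CPM, and Myl9 and Tagln lie at or below about 2.23 CPM. Relative to its level, Pfn1 has the widest gap between its 2 libraries labelled knockout (a ratio of 1.42).

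Among assembly and turnover genes, Pfn1 and Cfl1 were higher, Vasp was lower, and Diaph1 was not past the threshold. Pfn1 encodes profilin, which delivers actin monomers to growing filament ends. It had 218 and 309 CPM in the libraries labelled knockout and 126 and 140.1 CPM in the controls, with no overlap and a log2 fold change of 0.98 ± 0.11. Knockout replicate 2 held 1.42 times the level of replicate 1, and the log2 fold change was 0.71 without replicate 2 and 1.21 without replicate 1. Cfl1, for the filament-severing protein cofilin, was at 431 and 501 CPM against 369 and 356 CPM (0.36 ± 0.07). Vasp, whose product protects growing ends from capping, had 45.5 and 38.6 CPM in the libraries labelled knockout and 58.9 and 52.8 CPM in the controls (-0.41 ± 0.09). For Diaph1, a formin gene, the levels were 238 and 239.6 against 243 and 259.8 CPM (-0.07 ± 0.06).

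Tropomyosins, which coil along filaments and gate myosin access, were higher for Tpm1 and Tpm3. Tpm1 had 77.8 and 81.6 CPM in the libraries labelled knockout and 57.0 and 57.4 CPM in the controls (0.48 ± 0.07), and Tpm3 at 207 and 237 against 172 and 179 CPM (0.34 ± 0.07). Tpm4, the most abundant tropomyosin per length in all 4 libraries, was at 137 and 132 against 124 and 127 CPM (0.10 ± 0.07), and Tpm2 at 9.46 and 12.6 against 9.98 and 11.0 CPM (0.07 ± 0.16), neither past the threshold. Which of the 2 led depended on the division by length: without it, Tpm3 had the larger share in all 4 libraries. The undivided mean shares were 49.6% for Tpm3 and 30.2% for Tpm4 in the libraries labelled knockout, and 47.6% and 34.0% in the controls. Of the 50-base words of Tpm3, 23.2% also occur in other genes' transcripts, and 11.65% of those of Tpm4.

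Calponins and transgelins bind along filaments, and Cnn1 and Tagln are used as smooth muscle markers. Tagln had 46 and 53 counts in the libraries labelled knockout and 18 and 10 in the controls, a ratio of 3.49 with a counting interval of 2.27 to 5.51. Its log2 fold change of 1.78 ± 0.43 became 2.34 without control 1 and 1.35 without control 2. Pcsk7 and Gm48529 lie on the other strand across 1349 of its 1988 exon bases, and the strand setting of the counting is not given; Pcsk7 was at 11.1 ± 0.7 CPM in the libraries labelled knockout and 9.46 ± 0.27 CPM in the controls (SD, n = 2). Tagln2, by far the more abundant transgelin gene, was at 128 and 128 CPM against 151 and 149 CPM in the controls (-0.23 ± 0.06). That call was lost without control 1, without control 2 and with scaling by library size alone (-0.14). Cnn3 was at 250.1 and 248.6 against 282 and 271 CPM (-0.15 ± 0.06), Cnn2 at 29.6 and 31.4 against 24.6 and 28.8 CPM (0.19 ± 0.10), and Cnn1 at 1.75 and 2.77 against 1.496 and 1.59 CPM (0.55 ± 0.34). None of the 3 calponin genes was past the threshold, although Cnn3 was called lower without either of the libraries labelled knockout.

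Crosslinker, adhesion and membrane linker genes showed changes of at most 0.24 log2 units where they were past the threshold. Actn4, for the crosslinker alpha-actinin 4, had 367 and 390.4 CPM in the libraries labelled knockout and 319 and 323 CPM in the controls (0.24 ± 0.06), whereas its relative Actn1 was at 164 and 168 against 181 and 176 CPM (-0.10 ± 0.06, not past the threshold). Flna, for filamin A, was at 652 and 629 against 752 and 743 CPM (-0.22 ± 0.06). Tln1, for talin, which ties integrins to actin, was at 165 and 178 against 147 and 148 CPM (0.22 ± 0.07), and Msn, for the membrane linker moesin, at 179.5 and 188 against 153 and 165 CPM (0.20 ± 0.07). The calls of Actn4, Flna, Tln1 and Msn were each lost without control 1 and without control 2. Lima1 (0.15 ± 0.06), Vcl for vinculin (0.05 ± 0.06), Pxn for paxillin (0.04 ± 0.09) and Ezr for ezrin (-0.02 ± 0.07) were not past the threshold, and the groups overlapped for the last 3. Ap3m1 lies on the other strand across 2090 exon bases of Vcl, and was itself higher at 115.4 ± 0.07 CPM in the libraries labelled knockout against 97.7 ± 4.1 CPM in the controls (edgeR adjusted p 0.0088). Zyx, for zyxin, was at 5.86 and 3.91 CPM against 6.44 and 6.66 CPM (-0.42 ± 0.21). It was not past the threshold, and without knockout replicate 1 it was called lower at -0.74.

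Srf, the transcription factor gene of the group, had 22.9 and 22.9 CPM in the libraries labelled knockout and 11.6 and 13.7 CPM in the controls. Both libraries labelled knockout stood above both controls, with a log2 fold change of 0.85 ± 0.12, a level 1.80-fold higher, and a range of 0.73 to 0.98 over the alternatives. The CArG box, the element that SRF binds, was taken as CCWWWWWWGG, where each W is A or T. Shorter or longer runs of A and T between CC and GG were not counted. This pattern matches on both strands wherever it matches on one. Only exact matches were counted as boxes. Near matches that differ in 1 base, such as ccctaaaagg in the window of Myl12a, were not counted. It was searched in RefSeq windows of 300 bases, 250 before and 50 after each annotated start (GRCm38.p6, the build of the counts). Of the 40 genes, 35 matched a window by symbol, and Actb, Tagln, Diaph1, Rock1 and Pxn did not. A box lay in the window of 7 of the 35, or 20%, against 1.81% of all 27025 genes with a window. The 7 were Srf, Myl9, Actg1, Myl6, Cnn2, Lima1 and Vcl, and since many cytoskeletal genes are known SRF targets, the share was not read as a result of the comparison. Their log2 fold changes lay between 0.05 and 2.72. Of the 7, 3 were past the threshold as higher (Srf, Myl9 and Actg1) and 0 as lower. Over all genes tested, 16.5% were higher and 17.2% lower. The value of 2.72 is that of Myl9, which passed the filter through the libraries labelled knockout alone and so could not have been called lower. Among the other matched genes, which had no exact match in this window, 10 were higher and 5 lower. Sorted by call, a box lay in 3 of the 13 matched genes that were higher and 0 of the 5 that were lower. It also lay in 4 of the 16 not past the threshold, so nothing is read from these counts. Whether SRF had a part in any of these changes was not tested. The stretches before the start are shown for the 3 higher genes with a box and for Myh9, the gene with the largest fall, in which no box was found; capitals mark the boxes, and bases inside annotated exons are left off. They lie at chr17:46556176-46556412 (minus strand), chr2:156775214-156775419 (plus strand), chr11:120348543-120348745 (minus strand) and chr15:77842176-77842425 (minus strand), and read 5′ to 3′ in the direction of the gene.
Srf: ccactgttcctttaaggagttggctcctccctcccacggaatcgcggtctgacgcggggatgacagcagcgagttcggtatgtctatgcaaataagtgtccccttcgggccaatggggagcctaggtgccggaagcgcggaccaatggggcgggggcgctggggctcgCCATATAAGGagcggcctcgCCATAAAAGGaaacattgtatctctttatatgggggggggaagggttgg
Myl9: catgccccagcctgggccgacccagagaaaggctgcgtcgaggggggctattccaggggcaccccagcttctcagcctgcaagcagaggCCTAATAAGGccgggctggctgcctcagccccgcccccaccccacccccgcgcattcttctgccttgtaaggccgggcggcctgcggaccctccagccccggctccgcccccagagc
Actg1: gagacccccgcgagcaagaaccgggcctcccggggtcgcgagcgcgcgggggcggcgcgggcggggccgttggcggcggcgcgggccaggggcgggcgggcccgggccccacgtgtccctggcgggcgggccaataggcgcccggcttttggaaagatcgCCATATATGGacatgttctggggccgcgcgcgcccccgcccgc
Myh9: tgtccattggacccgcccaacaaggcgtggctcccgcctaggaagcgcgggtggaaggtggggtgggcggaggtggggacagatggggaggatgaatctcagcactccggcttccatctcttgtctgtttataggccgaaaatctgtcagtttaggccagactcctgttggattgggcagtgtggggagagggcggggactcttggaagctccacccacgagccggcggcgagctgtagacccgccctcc
Srf carries a pair of boxes, which begin 82 and 62 bases before the RefSeq start, Actg1 has 1 at 90 bases and Myl9 1 at 161 bases. In Cnn2, Lima1 and Vcl the box reads CCTTATAAGG, at 56, 47 and 227 bases, and in Myl6 CCTTATATGG at 50 bases. The windows of Lima1 and Myl6 with a box belong to RefSeq starts that lie much farther inside the GENCODE span of the gene than those of the other genes with a box. A match of letters describes the sequence and does not show binding.

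Other genes of the actin pathway, 216 in 9 lists drawn up by role, were set beside the 40. The lists too were chosen with earlier results of these data known. Of the 216 genes, 195 were tested, with a median log2 fold change of 0.05. In the libraries labelled knockout 54 rose and 30 fell (43.1%, against the 33.6% of all genes tested). Of the 195, 2 passed the count filter through the libraries labelled knockout alone, and nothing is read from the share of 43.1%. Without control 1 the number that rose was 33 and without control 2 the number that fell was 16. Arhgdib, for a GDP dissociation inhibitor of small GTPases, rose to 15.4 ± 3.7 CPM in the libraries labelled knockout, against 1.88 ± 0.80 CPM in the controls (log2 fold change 3.01 ± 0.23, edgeR adjusted p 5.8e-09). Arhgap35, for a GTPase-activating protein, was at 222 ± 6 against 160 ± 1 CPM (0.48 ± 0.06, adjusted p 7.7e-06), and Ppp1cb, the catalytic subunit of myosin phosphatase, at 525 ± 9 against 407 ± 3 CPM (0.37 ± 0.06, adjusted p 6.9e-05). Of 5 tested SRF cofactor genes 2 rose and 0 fell (40%): Mrtfb was at 50.2 ± 0.003 against 39.1 ± 1.6 CPM (0.36 ± 0.08, adjusted p 0.0022) and Elk4 at 34.5 ± 0.7 against 28.3 ± 1.1 CPM (0.29 ± 0.09, adjusted p 0.024). Without control 1, Mrtfb was no longer past the threshold (edgeR adjusted p 0.058), and neither was Elk4 without either control (0.222 and 0.086) and with DESeq2 (0.061).

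Filament nucleation and turnover genes were called in both directions. Of 24 Arp2/3 pathway genes, 5 rose and 3 fell, a share of 33.3% that is close to the 33.6% of all genes tested. Arpc2, a subunit of the branching complex, was at 146 ± 1 CPM in the libraries labelled knockout and 105 ± 6 CPM in the controls (0.47 ± 0.07, edgeR adjusted p 2e-05), Wasl, its activator N-WASP, at 136 ± 1 against 111 ± 3 CPM (0.29 ± 0.07), and Cyfip1, of the WAVE complex, at 123 ± 9 against 153 ± 2 CPM (-0.31 ± 0.07). The Wasl call was lost without control 2 (adjusted p 0.068). Of 18 formins and other nucleators tested, 5 rose and 5 fell (55.6%), with the 3 smallest adjusted p all among falls. Cobl, an actin nucleator known from neurons, fell to 188 ± 3 CPM in the libraries labelled knockout, against 372 ± 11 CPM in the controls (-0.99 ± 0.06, edgeR adjusted p 2.8e-10), the formin gene Fhod3 to 20.6 ± 1.2 against 50.1 ± 1.6 CPM (-1.28 ± 0.09), and Fmnl1 to 5.55 ± 1.07 against 10.7 ± 1.1 CPM (-0.95 ± 0.17). Of 28 turnover and capping genes tested, 7 rose and 6 fell (46.4%). Wdr1, which helps cofilin take filaments apart, rose to 119 ± 7 CPM against 72.3 ± 0.3 CPM in the controls (0.72 ± 0.07, edgeR adjusted p 1.5e-07), while the coronin genes Coro2b (-1.46 ± 0.12) and Coro1b (-0.58 ± 0.07) fell.

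**Figure D4:**
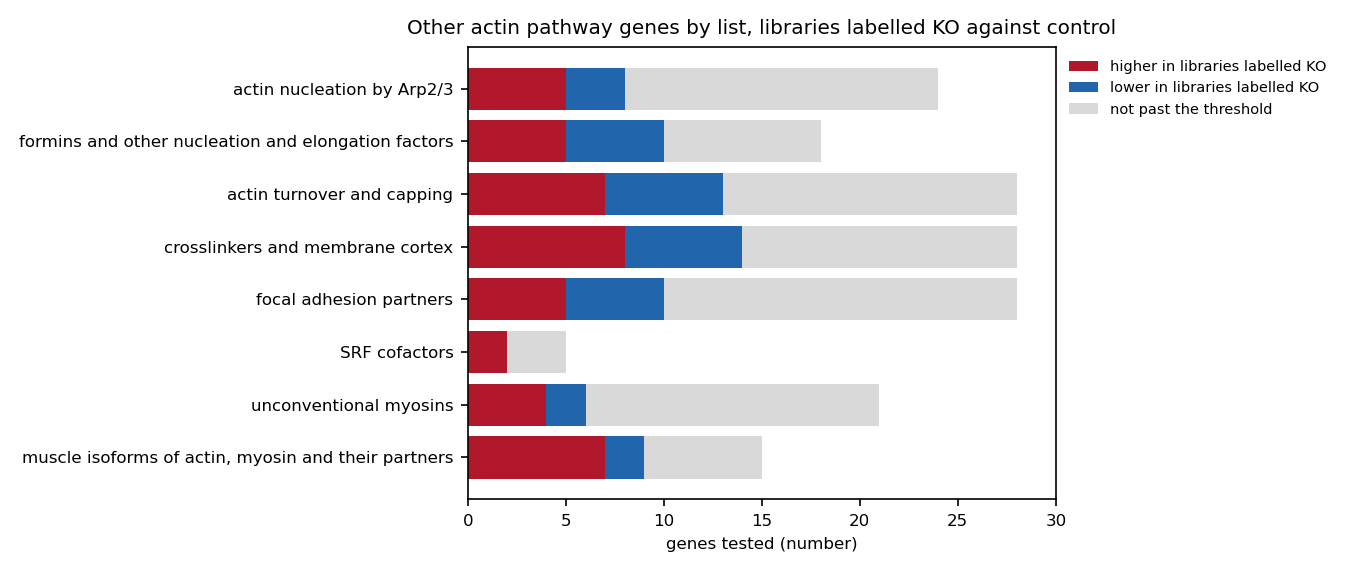
Number of genes tested (x axis) in each of 8 lists of other actin pathway genes (y axis), split into those higher in the libraries labelled knockout, those lower and those not past the threshold (edgeR adjusted p under 0.05). Formins and other nucleation factors hold 5 higher and 5 lower genes, and focal adhesion partners also 5 of each.

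Crosslinker, adhesion and other myosin genes were also called in both directions. Of 28 crosslinker and cortex genes, 8 rose and 6 fell (50%, against 33.6% of all genes tested). Eps8, an actin capping and bundling gene, was at 56.4 ± 1.8 CPM in the libraries labelled knockout and 26.4 ± 1.0 CPM in the controls (1.10 ± 0.09, edgeR adjusted p 1.0e-08), and the alpha-actinin gene Actn3, best known from fast muscle fibres, at 20.8 ± 0.6 against 40.5 ± 1.1 CPM (-0.96 ± 0.10). Of 28 focal adhesion partners, 5 rose and 5 fell, a share of 35.7% that is near that of all genes tested, and the 3 smallest adjusted p were falls: Parvb, for beta-parvin, to 71.9 ± 6.3 against 144 ± 1 CPM (-1.004 ± 0.07, edgeR adjusted p 2.0e-09), Fblim1 (-0.59 ± 0.07) and the tensin gene Tns1 (-0.73 ± 0.09). Of 21 unconventional myosin genes tested, 4 rose and 2 fell, a share of 28.6% that is below that of all genes tested. Myo19, a mitochondrial myosin gene, was at 34.3 ± 0.7 CPM against 22.3 ± 1.6 CPM in the controls (0.62 ± 0.10), Myo1f at 2.95 ± 0.13 against 8.17 ± 1.16 CPM (-1.47 ± 0.20) and Myo18b at 2.86 ± 0.29 against 5.53 ± 0.07 CPM (-0.95 ± 0.22).

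Muscle isoforms of actin, myosin and their partners were mostly at low levels, and 12 of 27 had too few counts to be tested. Of the 15 tested, 7 rose and 2 fell (60%, against the 33.6% of all genes tested). However, 2 of the 15 passed the filter through the libraries labelled knockout alone, so the count is in part set by the filter. Mylpf, the regulatory light chain gene of fast muscle, was at 60.9 ± 6.0 CPM in the libraries labelled knockout and 30.3 ± 1.6 CPM in the controls (1.01 ± 0.09, edgeR adjusted p 5.1e-08). The heavy chain genes Myh3 of embryonic muscle (6.56 ± 0.65 against 2.43 ± 0.03 CPM, 1.43 ± 0.22) and Myh6 of heart (4.60 ± 0.09 against 1.31 ± 0.01 CPM, 1.81 ± 0.27) rose as well. The 9 cardiac and skeletal muscle markers summed to 171 and 198 CPM in the libraries labelled knockout and 176 and 160.2 CPM in the controls, most of it from Ttn, the titin gene, at 159.9 and 187 against 169.8 and 153 CPM. Of the 5 markers tested, 2 were higher and 0 lower, against 16.5% and 17.2% of all genes tested. Myh7, for a slow muscle heavy chain, was one of those higher, with 25 and 26 counts against 2 and 2 in the controls. Myh7 passed the count filter through the libraries labelled knockout alone, so it could not have been called lower. Actc1 had 0 and 0 counts against 0 and 1, and Acta1 1 and 1 against 1 and 6. The part of these genes in the results was not tested.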

How the data were processed

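The authors deposited raw counts, whole numbers for each gene symbol, in 1 column per library. The submitters' processing notes name cutadapt, HISAT2, featureCounts and the mm10 build; versions, annotation release, strand setting and handling of multiply placed reads: not given in the sources used here. Column names carry OK where the titles carry KO and were matched by gene, role and number. Totals ranged from 22611434 to 25344190, so that 3 counts equal 0.123 to 0.136 CPM in a library; intervals are Clopper-Pearson at 95% and cover counting error only.

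The edgeR function filterByExpr (version 4.0.16, R 4.3.3), with 10 as minimum count and 15 as minimum total, kept 17482 of 55353 genes. After TMM scaling, the quasi-likelihood test of edgeR was run 2-sided on 2 residual degrees of freedom (prior count 0.125). P-values were adjusted by Benjamini-Hochberg across every gene tested, and 0.05 was the threshold. The common biological coefficient of variation was 0.067. Normalised CPM were computed from the deposited counts and TMM-scaled library sizes; the standard error is the log2 fold change divided by the square root of F. Replicates differed beyond sampling noise (chi-square per degree of freedom 11.5 for the libraries labelled knockout and 3.37 for the controls, over genes with at least 20 counts). DESeq2 1.42.0, without independent filtering, was an alternative.

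The 40 genes and the lists were chosen with earlier results of these data known. All 40 are named. In each list of other genes, the 3 past the threshold with the smallest adjusted p are named, or the 2 most abundant where none passed; 1 such gene and 1 list are not reported here. Positions and merged exon lengths come from GENCODE M21 on that build; Myl12b stands on 2 gene models there, and the one nearest to RefSeq's span was used. Words of 50 bases were compared with all M21 transcripts. Promoter windows are from RefSeq on GRCm38.p6.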

Additional observations from a re-analysis of the deposited data

How the results depend on the processing

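Leaving out 1 library in turn, members of the group called higher ranged from 10 to 16 and lower from 2 to 7, other pathway genes from 33 to 55 higher and 16 to 34 lower, and all genes from 1915 to 2995 higher and 2105 to 3244 lower. With scaling by library size alone, the lower calls in the group were 2 (Myh9 and Vasp), 19 were higher, and over all genes 3887 were higher and 2215 lower. Library sizes without the ribosomal-RNA-like genes, an alternative chosen after seeing the data, gave 16 and 5 in the group. The cause of these differences was not tested. Of 424 values of single genes of the group under alternatives, 381 kept direction and side of the threshold, 20 lost and 11 gained a call, and 12 changed sign; none of the 12 was called in either fit. With library size alone, Myh14 was at 0.0058, Actb at 0.024, Diaph1 at 0.011 and Ezr at 0.065. Leaving out 1 library, the log2 fold change ranged from -0.033 to 0.044 for Myh10, from -0.22 to 0.071 for Myh14, from -0.15 to 0.27 for Tpm2, from -0.081 to 0.15 for Pxn and from -0.12 to 0.071 for Ezr. Replicate numbers did not pair the libraries (correlation of deviations 0.01); with the replicate block the group had 15 higher and 5 lower calls, and all genes 3072 and 3216. Where 1 library was left out, the lone library of its group is assumed to vary like the other group. With 2 libraries per group, single libraries decided several calls.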
